A study of Mus musculus with 16 samples.

Results

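The deposited table was read for 35 genes of tumor necrosis factor (TNF) and NF-kappaB signaling, chosen by gene symbol from a fixed list, among 53679 gene symbols measured. They comprised 5 NF-kappaB subunits, 7 inhibitors or feedback regulators, 4 ligands, 4 receptors, 6 adaptors, 6 kinases or kinase scaffolds and 3 target genes, and together they held 187 of the 135202 annotated isoforms. The samples were wild-type mouse primary cortical neurons, prepared from embryonic cortex at embryonic day 15, in 4 groups of 4 cultures. CONTROL-VEH (cultures 1 to 4) received vehicle, CONTROL-TIA (5 to 8) received 10 µM tianeptine (TIA, an atypical antidepressant), OGD-VEH (9 to 12) received vehicle before oxygen-glucose deprivation and OGD-TIA (13 to 16) received TIA before it. Vehicle or TIA was added at day 8 in vitro, 24 h before 3 h of oxygen-glucose deprivation (OGD, an in vitro model of ischemia) or sham exposure, and RNA was taken after 6 h of reoxygenation. Levels are given as FPKM, which is scaled to transcript length and library size, with the isoforms of a gene added up. Cultures of a group are always listed in order of their number.

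NF-kappaB is a family of dimeric transcription factors that are kept in the cytoplasm by inhibitory IkappaB proteins until a kinase complex marks the inhibitor for degradation. TNF, interleukins and Toll-like receptor ligands start this canonical route through receptors, TRAF adaptors and the kinase Map3k7, whereas the non-canonical route runs through Map3k14 and Chuk to the processing of the Nfkb2 product and its partner Relb. Active NF-kappaB switches on genes of inflammation and adhesion as well as its own inhibitors, so that several members are both parts and targets of the pathway. In brain tissue the pathway is known in neurons, astrocytes, microglia and endothelial cells.

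Promoter letters are shown first because several of the members are textbook targets of the pathway itself. RefSeq promoters of build GRCm38.p6 were at hand for 27 of the 35 members (34 promoters), and the 250 bases before each start were searched on both strands for 2 motifs, the kappaB consensus and the AP-1 motif TGANTCA, where N is any base. Nfkb1, Relb, Nfkbiz, Vcam1, Ikbkb, Map3k8, Tlr4 and Cd40 had no promoter at hand and were not searched, so the lack of a window for them says nothing about a match. A kappaB match was found for 10 of the 27 members (37.0%), namely Nfkb2, Rel, Nfkbia, Nfkbie, Tnfaip3, Tnfaip2, Tnip1, Traf3, Map3k7 and Tlr2, and 8.23% of all 27025 genes with a promoter had one. AP-1 was found for 5 members (18.5%), against 7.82% of all genes. Windows of 30 bases are printed 5′ to 3′ on the gene's strand for the members with a match that are described in detail below, with the kappaB match in capitals (10 letters, or 11 where 2 matches overlap).
Nfkb2, chr19:46304688-46304717, + strand: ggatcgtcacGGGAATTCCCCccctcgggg
Nfkb2, chr19:46304707-46304736, + strand: ccccctcggggggccgaaaGGGGCTTTCCc
Nfkb2, chr19:46305449-46305478, + strand: tccgacggcaGGAATGTCCCcacaaaagcc
Nfkb2, chr19:46305695-46305724, + strand: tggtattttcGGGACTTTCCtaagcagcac
Nfkbia, chr12:55492657-55492686, - strand: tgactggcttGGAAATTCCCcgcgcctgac
Map3k7, chr4:31964005-31964034, + strand: ccccgggtcaGGAAATTCCCcgctcgggtc
Tlr2, chr3:83841762-83841791, - strand: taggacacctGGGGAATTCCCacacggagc
Tnfaip2, chr12:111442627-111442656, + strand: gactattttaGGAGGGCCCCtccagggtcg
Tnfaip3, chr10:19015516-19015545, - strand: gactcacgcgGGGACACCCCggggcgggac
Tnfaip3, chr10:19015411-19015440, - strand: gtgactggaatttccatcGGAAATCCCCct
The 4 Nfkb2 windows come from 3 annotated starts, and the closest match lay between 11 and 2 bases before a start. In Nfkbia, the match lay 29 to 20 bases before the start, and in Tnfaip3, which did not pass the test in these cultures, matches lay 125 to 116 and 12 to 3 bases before it. Matching letters describe the sequence and were not read as binding.

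Members differed widely in level, as the plot of all 35 genes shows. In CONTROL-VEH, Chuk, a catalytic subunit of the IkappaB kinase, had the highest group mean of the 35 genes with 67.4 FPKM, followed by Map3k7 with 44.3 FPKM and Ikbkb, the other catalytic subunit, with 31.7 FPKM. The ranges of these 3 genes did not overlap, although the lowest Map3k7 value (35.9 FPKM) lay close to the highest of Ikbkb (34.7 FPKM). Short non-coding isoforms made up a large share of some of these sums, since an intron-retaining transcript of 545 bases alone held 38.3% of the Chuk signal over all cultures. Genes needed a mean of at least 0.5 FPKM over the cultures compared to be tested, a level that all 4 ligands and all 4 receptors missed in every comparison.

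**Figure D1:**
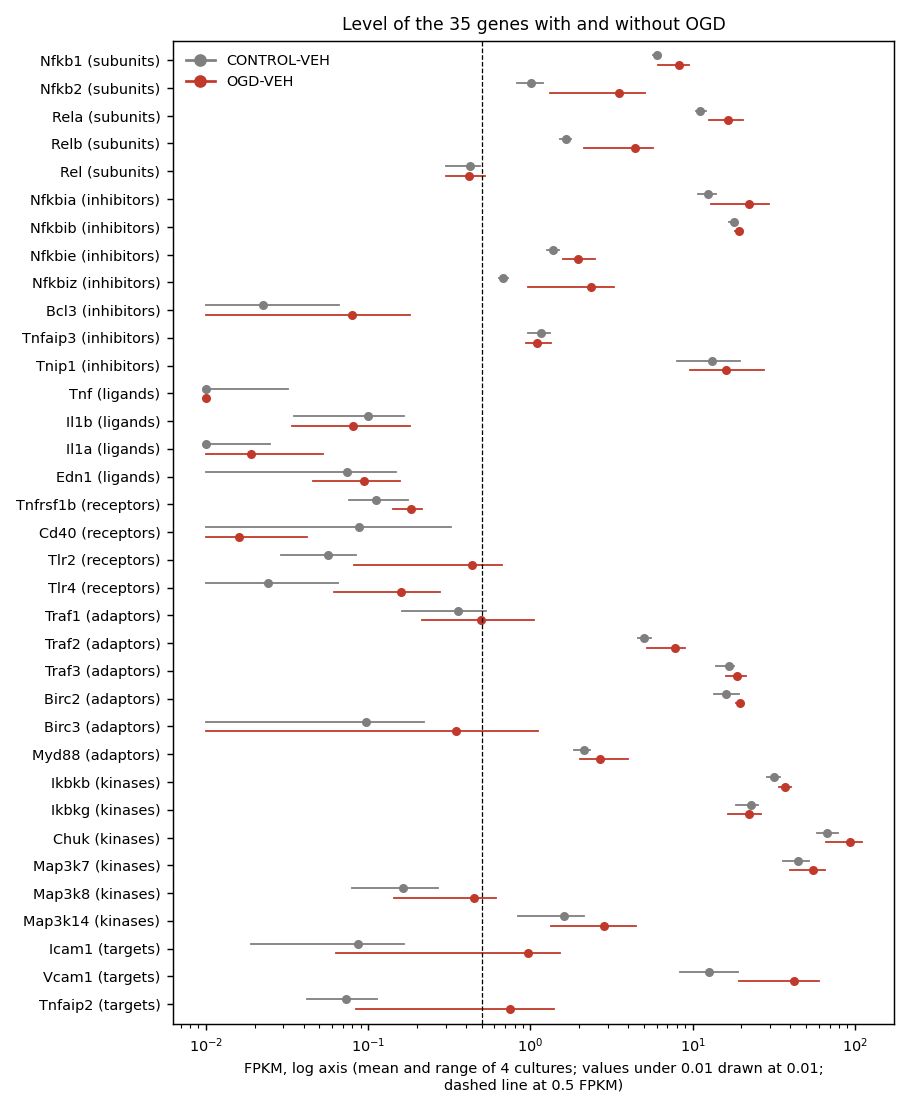
Levels of the 35 genes in FPKM on a log axis, CONTROL-VEH beside OGD-VEH, as the mean (point) and range (line) of 4 cultures each, with the role of each gene in brackets. Subunits, inhibitors and kinases lie mostly above 0.5 FPKM (dashed line), ligands and receptors below it, and the OGD-VEH ranges of Nfkb2, Rela, Relb, Nfkbie, Nfkbiz and Vcam1 lie wholly above those of CONTROL-VEH among the tested genes.

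After OGD without TIA, NF-kappaB subunits, an atypical inhibitor and an adhesion molecule were higher. Nfkb2, Relb, Nfkbiz and Vcam1 met the thresholds for differentially expressed genes (adjusted p of at most 0.05 with at least a 2-fold change, limma), and each rose, by between 1.27 and 1.67 on the log2 scale. These were 4 of the 21 members tested, against 2.4% of all 16346 genes called upward in OGD-VEH against CONTROL-VEH. At an unadjusted p under 0.05, 11 of the 21 were higher and none lower, where 20.2% of all genes (3299) were higher. This count was 7 without OGD-VEH 10 or OGD-VEH 11, where 2407 and 2531 of all genes were higher. Among the 11, Icam1 was tested only through its OGD-VEH values (mean 0.971 FPKM, against 0.0865 FPKM in CONTROL-VEH), so its direction was tied to the filter. In 6 of the 21 every OGD-VEH culture lay above every CONTROL-VEH culture, as in 12.7% of all genes. The median log2 fold change of the 21 members was 0.46, and that of all genes was 0.10. All 4 calls had adjusted p-values between 0.0414 and 0.0485, and leaving out any culture but OGD-VEH 9 left 0 members called, whereas leaving out OGD-VEH 9 gave 6. Genes called over the whole table went from 668 to between 1 and 71 without any of those 7 cultures and to 2186 without OGD-VEH 9.

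Over both treatment arms, with 8 OGD and 8 CONTROL cultures and TIA as a term, the change extended to more members at smaller folds. Nfkb2, Nfkbiz and Vcam1 passed both thresholds (3 of 20 tested, against 2.8% of all 16313 genes called upward). At an adjusted p of at most 0.05 and any fold, 12 of the 20 rose and none fell, against 18.7% of all genes that rose. Over all genes 3050 rose and 2192 fell by that rule, and with median-ratio scaling 2378 rose and 2666 fell, with 8 members up. The 12 were all 4 tested subunits, the inhibitors Nfkbia and Nfkbiz, the adaptors Traf2 and Birc2, the kinases Chuk, Map3k7 and Map3k14, and Vcam1. Members had a median log2 fold change of 0.35, beside 0.08 over all genes. The 12 became 7 without OGD-VEH 10, OGD-VEH 12 or OGD-TIA 16, where 2330, 2519 and 2399 of all genes rose. They numbered between 8 and 12 without any other culture. Single calls were lost under 14 of 25 alternatives for Nfkb1, under 10 for Chuk and under 9 each for Map3k7 and Nfkbia.

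Of the subunits, Nfkb2, a precursor of the non-canonical pathway (chr19:46304320-46312385), measured 0.945, 0.827, 1.2 and 1.05 FPKM in the CONTROL-VEH cultures and 1.32, 4.46, 3.13 and 5.1 FPKM in the OGD-VEH cultures. With TIA it measured 0.994, 0.863, 1.02 and 0.858 FPKM in CONTROL-TIA and 0.976, 1.65, 1.42 and 2.93 FPKM in OGD-TIA. Every OGD-VEH culture lay above every CONTROL-VEH culture, with OGD-VEH 9 close to the controls, while OGD-TIA 13 lay among the CONTROL-TIA values and OGD-TIA 16 stood above the rest of its group. Nfkb2 had a log2 fold change of 1.56 ± 0.40 (SE, adjusted p = 0.0485) without TIA and 1.15 ± 0.27 (adjusted p = 0.00739) over both arms (limma).

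Relb, the partner of the Nfkb2 product (chr7:19606217-19629438), was listed at 1.65, 1.73, 1.78 and 1.52 FPKM in the CONTROL-VEH cultures and at 2.15, 5.04, 5.69 and 4.81 FPKM in the OGD-VEH cultures. Cultures given TIA had 2.38, 3.17, 2.12 and 1.62 FPKM without OGD and 2.17, 2.4, 3.17 and 3.15 FPKM with it. OGD-VEH was wholly above CONTROL-VEH, but the CONTROL-TIA and OGD-TIA ranges overlapped. Relb had a log2 fold change of 1.27 ± 0.30 (SE, adjusted p = 0.0437) in the vehicle arm, 0.24 ± 0.23 (adjusted p = 0.566) in the TIA arm and 0.76 ± 0.23 (adjusted p = 0.0209) over both (limma).

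Rela, the main transactivating subunit of the canonical dimer, has a lone annotated isoform in the table. It measured 10.9, 10.5, 10.9 and 12.2 FPKM in the CONTROL-VEH cultures and 12.7, 16.7, 16 and 20.4 FPKM in the OGD-VEH cultures. In the TIA arm Rela measured 11.7, 10.2, 10.3 and 10.047 FPKM in CONTROL-TIA and 11.9, 12.4, 11.7 and 15.4 FPKM in OGD-TIA. The vehicle groups did not overlap, and OGD-TIA 16 was the high culture of its group. Rela had a log2 fold change of 0.54 ± 0.16 (SE, adjusted p = 0.0599) without TIA, short of the adjusted threshold, and 0.41 ± 0.10 (adjusted p = 0.00806) over both arms, past it (limma).

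Nfkb1, the precursor of the canonical partner of Rela, showed 6.24, 6.23, 5.73 and 6.04 FPKM in CONTROL-VEH against 6.09, 9.02, 8.44 and 9.46 FPKM in OGD-VEH. Values with TIA were 6.45, 6.24, 5.12 and 5.31 FPKM in CONTROL-TIA and 5.61, 7.36, 6.09 and 7.22 FPKM in OGD-TIA. OGD-VEH 9 lay within the CONTROL-VEH range and the other 3 above it. Over both arms the log2 fold change was 0.30 ± 0.10 (SE, adjusted p = 0.0366) (limma). Rel, a subunit best known from lymphocytes, stayed below the tested level at 0.301 to 0.524 FPKM in all 16 cultures, with overlapping groups.

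Among the inhibitors, Nfkbiz rose most. It encodes an atypical nuclear IkappaB protein that acts with NF-kappaB on secondary target genes (chr16:55811375-55838899). It measured 0.654, 0.675, 0.731 and 0.64 FPKM in the CONTROL-VEH cultures and 0.968, 3.29, 2.17 and 3.09 FPKM in the OGD-VEH cultures. In CONTROL-TIA the values were 0.592, 0.953, 0.819 and 0.531 FPKM, and in OGD-TIA 1.07, 1.26, 1.22 and 1.59 FPKM. Nfkbiz was the 1 tested member whose 8 OGD cultures all lay above all 8 CONTROL cultures, which 3.22% of all genes did in that direction. Nfkbiz had a log2 fold change of 1.55 ± 0.37 (SE, adjusted p = 0.0447) without TIA, 0.77 ± 0.24 (adjusted p = 0.167) with TIA and 1.16 ± 0.23 (adjusted p = 0.00378) over both arms (limma).

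Nfkbia, the classical inhibitor that NF-kappaB induces to end its own activity, measured 10.7, 11.3, 13.8 and 13.9 FPKM in the CONTROL-VEH cultures and 13.1, 22, 24.9 and 29.4 FPKM in the OGD-VEH cultures. CONTROL-TIA had 19.3, 20.001, 11.8 and 17.9 FPKM and OGD-TIA 18.3, 20.7, 17.9 and 23.2 FPKM. OGD-VEH 9 fell within the CONTROL-VEH range, and 3 of the 4 CONTROL-TIA cultures lay above that range without OGD. An intron-retaining isoform of 701 bases held 36.5% of the signal. On its own, the protein-coding isoform of 1578 bases averaged 10.2 FPKM in CONTROL-VEH, 8.00 in CONTROL-TIA, 16.5 in OGD-VEH and 11.1 in OGD-TIA. Nfkbia had a log2 fold change of 0.79 ± 0.24 (SE, adjusted p = 0.0667) without TIA and 0.51 ± 0.17 (adjusted p = 0.0307) over both arms (limma).

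Tnfaip3, a ubiquitin-editing enzyme and another induced brake on the pathway, measured 1.31, 1.31, 1.08 and 0.97 FPKM in the CONTROL-VEH cultures and 0.934, 1.17, 1.34 and 0.972 FPKM in the OGD-VEH cultures. With TIA, Tnfaip3 measured 1.29, 1.24, 0.935 and 1.08 FPKM in CONTROL and 0.849, 0.823, 1.85 and 0.757 FPKM in OGD cultures. All 4 groups overlapped. The log2 fold change was -0.12 over both arms, with a 95% confidence interval from -0.48 to 0.24, so that a rise as large as that of Nfkb2 or Nfkbiz lay outside the interval. Of the remaining inhibitors, Nfkbie was higher in every OGD-VEH than in every CONTROL-VEH culture (1.58 to 2.49 against 1.26 to 1.51 FPKM) without passing the adjusted threshold over both arms (adjusted p = 0.0820, limma). Nfkbib ranged from 15.99 to 20.3 FPKM over all 16 cultures and did not pass (log2 fold change 0.07, interval -0.05 to 0.20). Tnip1, which binds the Tnfaip3 protein, ranged from 6.88 to 30.9 FPKM, and its short isoform of 442 bases held 41.8% of the signal and reached 0 in each group. Bcl3, an atypical nuclear IkappaB protein, was listed at 0 to 0.181 FPKM.

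**Figure D2:**
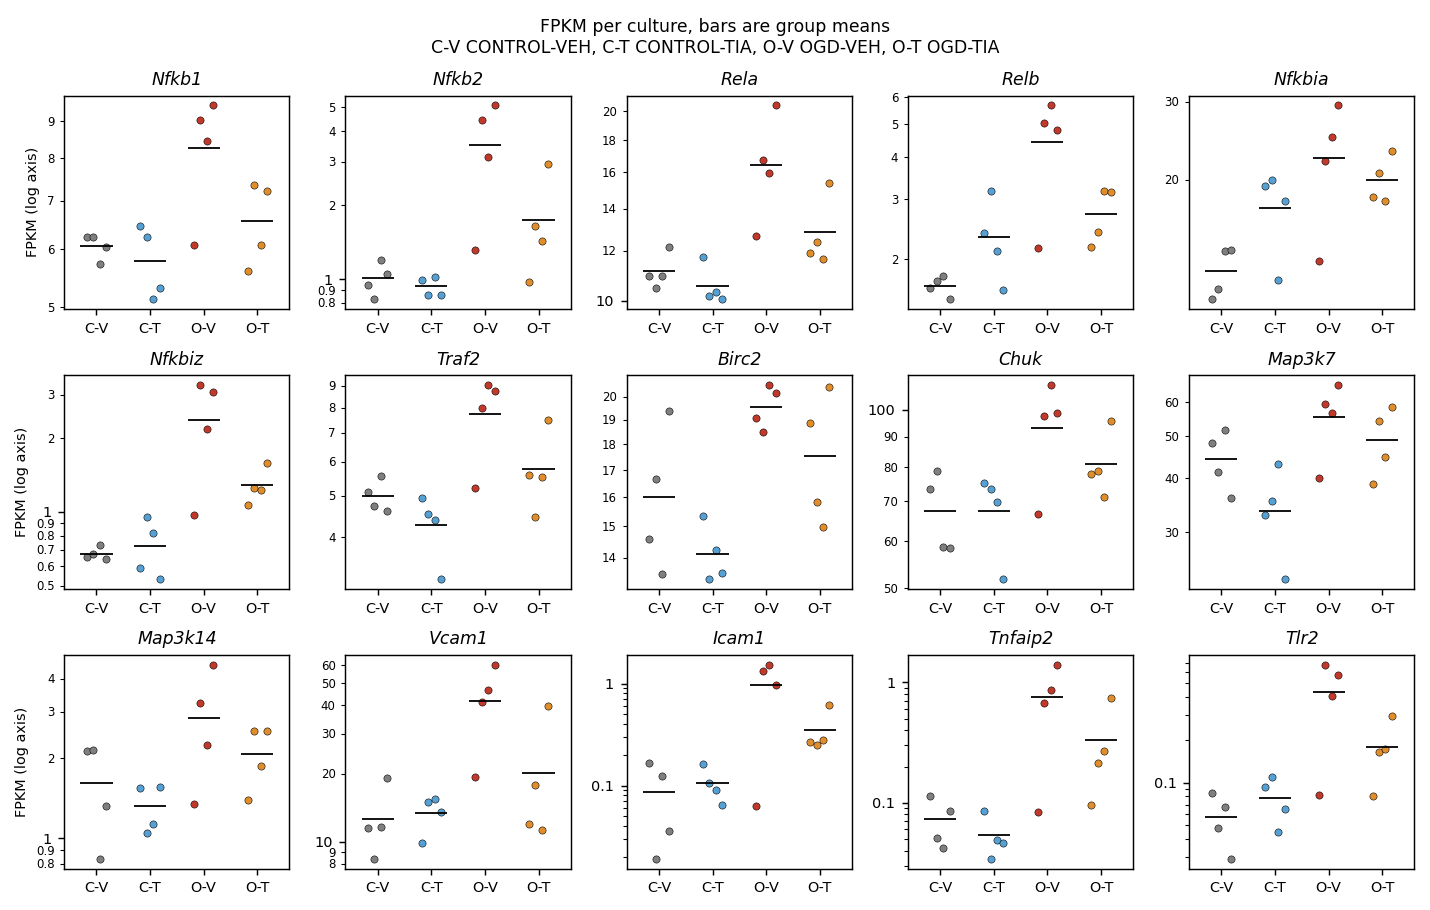
FPKM in each of the 16 cultures (points, log axes that differ between panels) with the mean of each group (bars), for the 12 members that rose over both arms at an adjusted p of at most 0.05 and for Icam1, Tnfaip2 and Tlr2, which lay under the tested level there. In most panels OGD-VEH 9 is the lowest OGD-VEH culture and OGD-TIA 16 the highest OGD-TIA culture.

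The ligands on the list were near the limit of detection. Tnf, the ligand that names the pathway, was listed at 0 in 14 of 16 cultures, including all 4 of OGD-VEH, whereas culture 4 (CONTROL-VEH) had 0.032 FPKM and culture 13 (OGD-TIA) had 0.031 FPKM, each the equivalent of about 1.1 reads as estimated from the spacing of low FPKM values. Il1b, an inflammatory interleukin, measured 0.166, 0.074, 0.126 and 0.035 FPKM in the CONTROL-VEH cultures and 0.075, 0.034, 0.181 and 0.035 FPKM in the OGD-VEH cultures. TIA cultures had 0.25, 0.062, 0.292 and 0.253 FPKM in CONTROL and 0.124, 0, 0.062 and 0.032 FPKM in OGD. No Il1b value exceeded the equivalent of about 7.5 reads, and the groups overlapped with and without TIA. Il1a did not exceed 0.053 FPKM (about 2.0 reads), and Edn1, the vasoconstrictor endothelin, ranged from 0 to 0.164 FPKM. These 4 ligands stayed at or below the equivalent of 7.7 reads in every culture, and a small change in them was not detectable at this depth.

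Receptors on the list were also low. Tlr2, a Toll-like receptor, was listed at 0.084, 0.048, 0.067 and 0.029 FPKM in the CONTROL-VEH cultures and at 0.082, 0.673, 0.409 and 0.576 FPKM in the OGD-VEH cultures. In the TIA arm Tlr2 reached 0.093, 0.109, 0.045 and 0.065 FPKM without and 0.081, 0.165, 0.172 and 0.296 FPKM with OGD. Cultures OGD-VEH 10 to 12 were above every control, while OGD-VEH 9 and OGD-TIA 13 were within the control range. Tested without any filter on low values, Tlr2 rose over both arms (log2 fold change 1.10, adjusted p = 0.0238, limma). Tlr4 ranged from 0 to 0.278 FPKM, Tnfrsf1b, a TNF receptor of immune and endothelial cells, from 0.057 to 0.216 FPKM, and Cd40 from 0 to 0.324 FPKM, all with overlapping groups.

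Adaptors and kinases changed by small folds from higher levels. Traf2, which joins TNF receptors to the kinases, measured 5.1, 4.74, 5.56 and 4.6 FPKM in the CONTROL-VEH cultures and 5.2, 8.01, 9.04 and 8.74 FPKM in the OGD-VEH cultures. With TIA these values were 4.94, 4.54, 4.39 and 3.2 FPKM and 5.59, 4.47, 5.54 and 7.5 FPKM. OGD-VEH 9 again lay within the CONTROL-VEH range. Over both arms the log2 fold change was 0.51 ± 0.13 (SE, adjusted p = 0.0126) (limma).

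Birc2, a ubiquitin ligase that protects cells from TNF-induced death, measured 14.6, 16.7, 13.5 and 19.4 FPKM in the CONTROL-VEH cultures and 19.1, 18.5, 20.5 and 20.2 FPKM in the OGD-VEH cultures. Its TIA values were 15.3, 13.3, 14.2 and 13.5 FPKM in CONTROL-TIA and 18.9, 15.8, 15 and 20.4 FPKM in OGD-TIA. The highest CONTROL-VEH culture reached into the OGD-VEH range, which was narrow. The change over both arms was small: the log2 fold change was 0.30 ± 0.08 (SE, adjusted p = 0.0165) (limma). Traf3, an inhibitor of the non-canonical route (13.9 to 21.3 FPKM over all cultures), and Myd88, the adaptor of Toll-like receptors (1.58 to 4.00 FPKM), did not pass. Traf1 (0.159 to 1.06 FPKM) and Birc3 (0 to 1.11 FPKM), textbook NF-kappaB target genes, were under the tested level with overlapping groups.

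Chuk measured 73.6, 78.8, 58.6 and 58.5 FPKM in the CONTROL-VEH cultures and 66.7, 97.6, 110.0 and 98.5 FPKM in the OGD-VEH cultures. In CONTROL-TIA it measured 75.2, 73.4, 69.9 and 51.8 FPKM, and in OGD-TIA 78, 78.9, 71.3 and 95.8 FPKM. OGD-VEH 10 to 12 lay above all controls and OGD-VEH 9 among them. Chuk rose over both arms: the log2 fold change was 0.36 ± 0.12 (SE, adjusted p = 0.0290) (limma).

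Map3k7, the kinase upstream of the canonical complex, had 48.2, 41.4, 51.8 and 35.9 FPKM in the CONTROL-VEH cultures and 39.968, 59.5, 56.6 and 65.7 FPKM in the OGD-VEH cultures. With TIA it had 32.9, 35.3, 43.1 and 23.3 FPKM in CONTROL and 38.9, 54.4, 44.9 and 58.6 FPKM in OGD cultures. Its log2 fold change was larger with TIA (0.56) than without (0.31), with overlapping intervals, and the CONTROL-TIA group included the lowest value of all 16. With isoforms weighted by length the order turned (0.28 with and 0.41 without TIA). Over both arms the log2 fold change was 0.44 ± 0.14 (SE, adjusted p = 0.0290) (limma).

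Map3k14, the kinase that starts the non-canonical route, measured 2.13, 2.15, 0.834 and 1.32 FPKM in the CONTROL-VEH cultures and 1.35, 3.23, 2.25 and 4.5 FPKM in the OGD-VEH cultures. TIA cultures measured 1.55, 1.05, 1.13 and 1.55 FPKM in CONTROL and 1.39, 2.52, 1.87 and 2.53 FPKM in OGD. Groups overlapped in both arms. For the 16 cultures the log2 fold change was 0.67 ± 0.24 (SE, adjusted p = 0.0471) (limma), and its call was lost under 15 of 24 alternatives. Ikbkb (28.6 to 40.6 FPKM over all cultures) and Ikbkg, the scaffold of the IkappaB kinase (16.2 to 26.5 FPKM), did not pass, and Map3k8, a kinase of the same cascade, was under the tested level at 0.036 to 0.612 FPKM.

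Of the target genes, Vcam1 was well expressed, whereas Icam1 and Tnfaip2 were low. Vcam1, an adhesion molecule for leukocytes (chr3:116109949-116129688), measured 11.6, 8.4, 11.6 and 19.1 FPKM in the CONTROL-VEH cultures and 19.2, 41.3, 47 and 60.3 FPKM in the OGD-VEH cultures. In the presence of TIA, Vcam1 measured 9.84, 15, 15.5 and 13.5 FPKM without OGD and 12, 17.8, 11.3 and 39.7 FPKM after it. Every OGD-VEH culture was above every CONTROL-VEH culture, by little for OGD-VEH 9, whereas in OGD-TIA only culture 16 stood far above CONTROL-TIA. Vcam1 had a log2 fold change of 1.67 ± 0.37 (SE, adjusted p = 0.0414) without TIA, 0.40 ± 0.38 (adjusted p = 0.572) with TIA and 1.04 ± 0.32 (adjusted p = 0.0233) over both arms (limma).

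Icam1, the adhesion molecule most used as a readout of NF-kappaB (chr9:21015985-21028817), was listed at 0.167, 0.019, 0.124 and 0.036 FPKM in the CONTROL-VEH cultures and at 0.063, 1.33, 1.52 and 0.963 FPKM in the OGD-VEH cultures. Its TIA values were 0.163, 0.105, 0.09 and 0.064 FPKM in CONTROL-TIA and 0.265, 0.249, 0.281 and 0.621 FPKM in OGD-TIA. OGD-VEH 10 to 12 exceeded all controls, OGD-VEH 9 did not, and all 4 OGD-TIA cultures lay above all 4 CONTROL-TIA cultures. Icam1 had a log2 fold change of 2.18 ± 0.77 (SE, adjusted p = 0.0885) without TIA, which missed the adjusted threshold (limma). Tnfaip2, a TNF-induced gene, measured 0.113, 0.051, 0.042 and 0.085 FPKM in the CONTROL-VEH cultures, 0.084, 0.669, 0.864 and 1.4 FPKM in OGD-VEH, 0.085, 0.034, 0.049 and 0.046 FPKM in CONTROL-TIA and 0.096, 0.215, 0.271 and 0.739 FPKM in OGD-TIA. Without the filter on low values both rose over both arms, Icam1 by 1.64 (adjusted p = 0.0226) and Tnfaip2 by 1.63 (adjusted p = 0.0144) on the log2 scale (limma), among 6 members called there, where 1.42% of all 35341 genes were called upward.

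With TIA, no member was called after OGD. In OGD-TIA against CONTROL-TIA limma called 0 of 20 members tested, as it called 0.0% of all 16242 genes. At an unadjusted p under 0.05, 6 of the 20 members were higher (Nfkb2, Rela, Nfkbiz, Birc2, Map3k7 and Map3k14) and none lower, where 11.6% of all genes were higher. This count was 1 without OGD-TIA 16 (1804 of all 16187 genes higher) and 2 without CONTROL-TIA 6, 7 or 8 (1345 to 1395 genes). It was 3 without OGD-TIA 14 (1550 genes) and 0 without the culture of each group with the most of the astrocyte gene Gfap (1485 genes). With isoforms weighted by length it was 11, and 2773 of all 16257 genes were higher. Nfkbiz was the 1 tested member with every OGD-TIA culture above every CONTROL-TIA culture, a separation that 9.51% of all genes showed upward. The median log2 fold change of the members was 0.26, and that of all genes was 0.04.

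The 2 responses, which share no cultures, can be set side by side. Of the 20 members tested in both arms, 19 had the same sign (77.9% of all 15891 genes tested in both did), and 15 were closer to 0 with TIA, a share of 75% that lies near the 73.3% of all genes. The 12 members that rose over both arms had a median log2 fold change of 0.66 without TIA and 0.35 with TIA, and 10 of them were closer to 0 with TIA. The difference itself was not past the adjusted threshold for any member. The interaction of OGD and TIA gave 0 of 20 members called and 0.0% of all 16313 genes (limma), with 988 genes (6.06%) at an unadjusted p under 0.05. Relb (-1.03 ± 0.38 SE, unadjusted p = 0.0170, limma) and Vcam1 (-1.27 ± 0.57 SE, unadjusted p = 0.0424, limma) were the members among these, both with an adjusted p of 0.722. Without OGD-VEH 9, 7 members and 2939 genes were at an unadjusted p under 0.05, and without OGD-TIA 16, 3 members and 2298 genes were. Without any other culture 1 or 2 members were, and with isoforms weighted by length 0 members were.

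**Figure D3:**
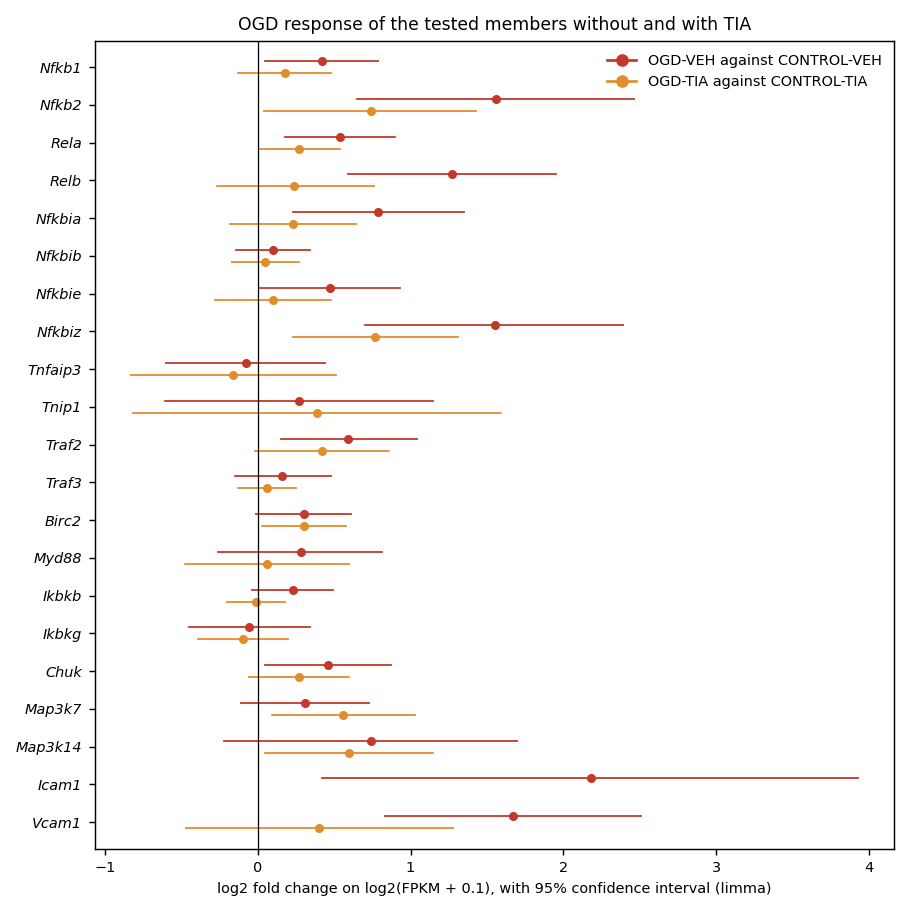
Log2 fold change after OGD for the 21 members tested in at least 1 arm, without TIA (OGD-VEH against CONTROL-VEH) and with TIA (OGD-TIA against CONTROL-TIA), as points with 95% confidence intervals from limma. Intervals of the arms overlap for each member tested in both, and the widest gaps between arms are those of Vcam1 (1.67 and 0.40) and Relb (1.27 and 0.24).

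Comparing TIA with vehicle directly gave no calls. In OGD-TIA against OGD-VEH, 21 of 22 members tested had a log2 fold change below 0 (Tnip1 was the exception at 0.22), where 43.3% of all 16351 genes were above 0, and none was called, as 0.0% of all genes were (limma). Among these 21, Icam1 and Tnfaip2 passed the filter on low values only through OGD-VEH, so their sign was tied to the filter. Their means were 0.971 and 0.754 FPKM in OGD-VEH and 0.354 and 0.330 FPKM in OGD-TIA. Vcam1 was the 1 member at an unadjusted p under 0.05 (-1.14 ± 0.47 SE, unadjusted p = 0.0421, adjusted p = 0.5505, limma), among 1293 genes (7.91%). Without OGD-VEH 9 there were 10 such members of 22 and 3809 such genes. Without OGD-TIA 16 there were 4 members of 22 and 2958 of 16360 genes, a similar share. Without OGD-VEH 12 there were 1 member and 825 genes, and without any other culture or with isoforms weighted by length there were 0 members. All 22 members had overlapping groups, where 2.51% of all genes lay wholly lower with TIA. In CONTROL-TIA against CONTROL-VEH, 0 of 20 members and 0.0% of all 16170 genes were called, with 621 genes (3.84%) at an unadjusted p under 0.05. Nfkbia was the 1 member among them (0.45 ± 0.18 SE, unadjusted p = 0.0367, limma), although its protein-coding isoform averaged less with TIA (8.00 FPKM) than without (10.2 FPKM), the excess lying in the intron-retaining isoform (9.27 against 2.27 FPKM). With isoforms weighted by length, 0 members were at an unadjusted p under 0.05 there, as without CONTROL-VEH 1, CONTROL-VEH 2, CONTROL-TIA 5 or CONTROL-TIA 6, and without CONTROL-VEH 4 or CONTROL-TIA 7 there were 2.

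Cultures within a group differed together. Over the 12 members that rose over both arms, OGD-VEH 9 was the lowest OGD-VEH culture for 11 and OGD-VEH 12 the highest for 7, while OGD-TIA 16 was the highest OGD-TIA culture for 10. Cell type markers moved with the same cultures. The sum of 8 neuronal markers was 1845, 1419, 1325 and 1027 FPKM in OGD-VEH 9 to 12 and 1987, 1965, 2079 and 1292 FPKM in OGD-TIA 13 to 16, against 1975 to 2657 FPKM in all CONTROL cultures. For the oligodendrocyte lineage, 8 markers summed to 244, 559.7, 526 and 676 FPKM in OGD-VEH and 225, 277, 237 and 438 FPKM in OGD-TIA, against 159.5 to 213.0 FPKM in the controls, and 5 of the 7 tested rose over both arms while Mbp fell. For 8 astrocyte markers the sums were 1005, 1375, 1255 and 2544 FPKM in OGD-VEH and 895, 858, 750.3 and 1930.0 FPKM in OGD-TIA, with 3 of 8 up over both arms, and 739, 763, 871 and 1572 FPKM in CONTROL-VEH.

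CONTROL-VEH 4 had a higher astrocyte sum than OGD-VEH 9 to 11, its Vcam1 (19.1 FPKM) was the highest of the 8 CONTROL cultures, and its Nfkb2 (1.05 FPKM) and Icam1 (0.036 FPKM) were within the range of the other controls. The astrocyte markers did not move together there, since its Aldh1l1 (60.6 FPKM) was below the 142 to 180.1 FPKM of the other CONTROL-VEH cultures. Microglial markers, 11 genes that include the defining markers of these cells, summed to 0.565 to 3.15 FPKM over all 16 cultures. Sums of 7 endothelial markers were low but higher in OGD-VEH 10 to 12 (1.49, 1.42 and 1.60 FPKM, with 0.621 in OGD-VEH 9) than in the 8 CONTROL cultures (0.487 to 0.789 FPKM), with 0.620 to 1.16 FPKM in OGD-TIA. Flt1 carried that rise, with 0.992, 0.977 and 1.075 FPKM in OGD-VEH 10 to 12 against at most 0.086 FPKM in the controls. Kdr was also higher there (0.148, 0.123 and 0.234 against 0.025 to 0.09 FPKM). Pecam1 was lower (0.327, 0.248 and 0.276 against 0.361 to 0.544 FPKM), and Cldn5 and Cdh5 were at 0. For 8 fibroblast and mural cell markers the median sum was 15.6 FPKM in CONTROL-VEH, 14.5 in CONTROL-TIA, 8.01 in OGD-VEH and 10.2 in OGD-TIA. Dcn carried most of this difference, with 9.93 to 14.4 FPKM in CONTROL-VEH and 2.20 to 9.65 FPKM in OGD-VEH. Pdgfrb, the other marker of this list tested after OGD, overlapped (0.984 to 4.34 and 0.951 to 4.74 FPKM). In bulk cultures, fewer cells of a type and less RNA per cell cannot be told apart, and the part of cell composition in the members' changes was not tested. When the culture with the most Gfap, an astrocyte filament gene, was left out of each group (cultures 4, 8, 12 and 16, the last-numbered of each, a choice made after seeing the data), limma called 0 members and 2 of 16330 genes in OGD-VEH against CONTROL-VEH and 0 members and 376 of 16269 genes over both arms. At any fold, 3 of 20 members kept an adjusted p of at most 0.05 over both arms (Rela, Nfkbiz and Birc2), near the share of all genes that rose by that rule (9.61%). A log2 fold change above 0 was found for 17 of the 20, a larger share than the 9166 of 16269 genes.

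**Figure D4:**
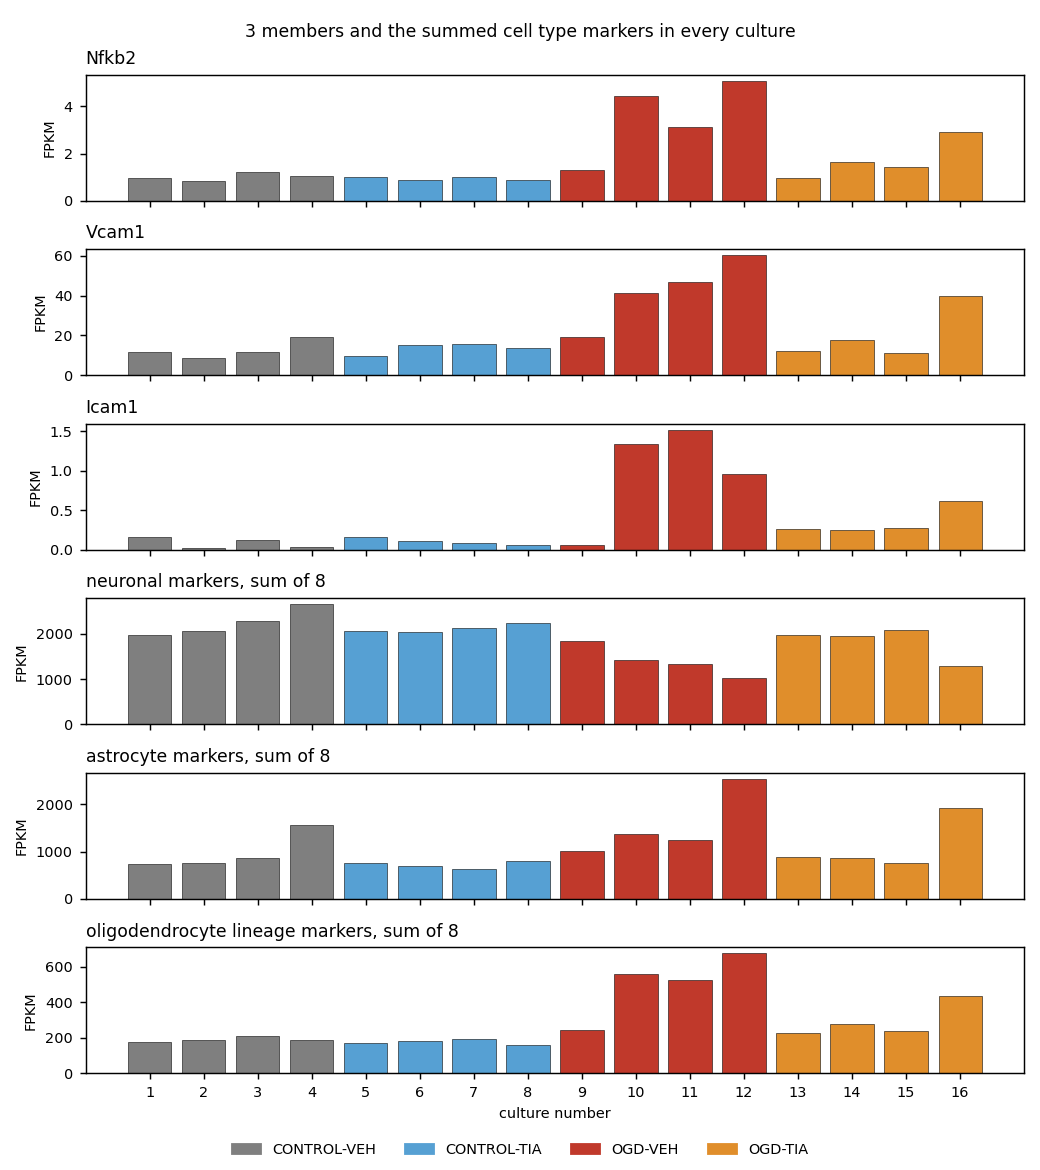
FPKM per culture (bars, linear axes from 0) of Nfkb2, Vcam1 and Icam1 and of the summed markers of neurons, astrocytes and the oligodendrocyte lineage, coloured by group. OGD-VEH 10 to 12 and OGD-TIA 16 have the 4 highest Nfkb2, Vcam1 and oligodendrocyte lineage values and the 4 lowest neuronal sums, and OGD-VEH 9 lies nearer to the controls.

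Other genes of the pathway, 77 in 5 lists, included larger fold changes than those of the members. The lists were chosen with results of these data known. Genes low in the controls could pass the filter on low values through their OGD cultures alone, which can raise counts among those tested. Over both arms 11 of 55 tested were called and rose, against the 2.8% of all genes, and at an adjusted p of at most 0.05 and any fold 23 rose, against the 18.7% of all genes, and 2 fell. Some of these receptors rose and were well above the low levels of the receptors among the 35 genes. Tnfrsf1a, the widely expressed death-domain receptor of TNF, measured 5.69, 6, 11.2 and 6.46 FPKM in the CONTROL-VEH cultures and 45.3, 86.6, 78.7 and 176 FPKM in the OGD-VEH cultures. TIA cultures had 12.7, 5.16, 5.45 and 5.24 FPKM in CONTROL and 8.6, 28.8, 46.6 and 101 FPKM in OGD. OGD-VEH 9 stood clear of the controls for this gene. Its log2 fold change was 2.95 ± 0.44 over both arms (adjusted p = 0.00126, limma), beside 2.16 ± 0.42 (adjusted p = 0.00314) for Tnfrsf12a, the receptor of a TNF-like cytokine, and 1.88 ± 0.39 (adjusted p = 0.00440) for Il1r1, the signaling receptor of Il1b. With isoforms weighted by length, that of Tnfrsf1a was 1.92 and lay below the 2.17 of Tnfrsf12a. At any fold 4 of 9 tested receptors rose.

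Of 28 further target genes, 16 were tested over both arms, and of these 11 rose and 1 fell at an adjusted p of at most 0.05. The filter on low values shaped this share. Cxcl10, Ccl2 (0 to 0.278 FPKM in the controls) and Ptgs2 (0.017 to 0.159 FPKM) passed it only through their OGD cultures. Targets that stayed low, such as Ccl20 (at most 0.649 FPKM in any culture), were not tested. Cxcl10, a chemokine, measured 0.328, 0.212, 0.153 and 0.081 FPKM in the CONTROL-VEH cultures, 0.948, 11.9, 8.61 and 13.5 FPKM in OGD-VEH, 0.508, 0.289, 0.21 and 0.277 FPKM in CONTROL-TIA and 0.884, 4.4, 2.75 and 6.79 FPKM in OGD-TIA, and its groups were separate in both arms. Its log2 fold change was 3.69 ± 0.53 (adjusted p = 0.00117, limma), followed by Ccl2, another chemokine, at 3.58 ± 0.58 (adjusted p = 0.00160), and Ptgs2, the inducible cyclooxygenase, at 2.72 ± 0.45 (adjusted p = 0.00178). Sod2, the mitochondrial superoxide dismutase, was the 1 target that fell (-0.16 ± 0.05, adjusted p = 0.0246, limma). Among 21 further adaptors and kinases, 6 rose, not far above the 18.7% of all genes, led by Ticam1 (0.74 ± 0.20, adjusted p = 0.0125), Traf4 (0.38 ± 0.11, adjusted p = 0.0148) and Tirap (0.88 ± 0.25, adjusted p = 0.0161, limma). The deubiquitinase Cyld was the 1 of 5 further inhibitors past the threshold and fell (-0.25 ± 0.06, adjusted p = 0.00620, limma), and Il33 (0.86 ± 0.26, adjusted p = 0.0230) and Tnfsf13b (0.87 ± 0.29, adjusted p = 0.0314) were the 2 of 4 further ligands that rose.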

How the data were processed

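RNA-seq libraries of 16 cultures were sequenced with 50-base single-end reads. Per the labels and the study's methods, the authors aligned reads with STAR to GRCm38 and deposited isoform FPKM scaled by TMM; no read counts were used here. Isoforms were summed per symbol, log2(FPKM + 0.1) was taken, and genes averaging 0.5 FPKM or more across the compared cultures were tested with limma 3.58.1 (R 4.3.3, trended empirical Bayes, Benjamini-Hochberg adjustment over all genes tested), because the authors' count-based test needs read counts. A fold change on this scale understates that of low genes. Calls needed an adjusted p of at most 0.05, either alone or together with a change of 1 or more on the log2 scale. Depth, estimated from the spacing of low FPKM values, was about 19750000 to 26050000 reads, which is approximate because few low values were whole multiples (32.7% to 36.5% within 0.1). The p-values measure the spread between 4 cultures a group, described as biological replicates. The members and lists were chosen with earlier results of these data known. Values in every culture were given for each member called in at least 1 comparison and for Tnf, Il1b, Nfkbia, Tnfaip3, Rela, Nfkb1 and Icam1, and up to 3 called genes were named from each further list; Tnfaip2 and Tlr2 were added after their values were seen. Coordinates are GENCODE M21 (GRCm38).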

Additional observations from a re-analysis of the deposited data

Results flagged for a closer look

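In groups of 4 cultures, 70 sets of values from 18 members were examined for a culture far from the other 3 by Dixon's test. The test flagged 5, not far from the rate of about 1 in 20 that chance gives for continuous values. Icam1 in OGD-TIA 16 was high at 0.621 FPKM, beside 0.265, 0.249 and 0.281 FPKM. Tnfaip3 in OGD-TIA 15 was high at 1.846 FPKM, beside 0.849, 0.823 and 0.757 FPKM. In estimated reads it had 105.8, beside 94.4, 94.7 and 78.7, so reads did not show an excess of that size. Il1b in CONTROL-TIA 6 was low at 0.062 FPKM, beside 0.25, 0.292 and 0.253 FPKM. In estimated reads it had 2.0, beside 7.5, 2.5 and 2.5, so the gap rested on very few reads and on how they were split between isoforms. Tnf was above 0 in a lone culture of CONTROL-VEH (culture 4, 0.032 FPKM) and of OGD-TIA (culture 13, 0.031 FPKM), each worth about 1.1 reads. With the other 3 values at 0, the test flags a value of any size, so both Tnf flags carry no information.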

How the results depend on the processing

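The count of members called in OGD-VEH against CONTROL-VEH (4) became 1 with a pseudocount of 1, 0 without the filter on low values and 0 without the most Gfap-rich culture of each group, and ranged from 0 to 6 when single cultures were left out. Over both arms the count (3) became 0 with a pseudocount of 1, 6 without the filter, 1 with a minimum of 2 FPKM, 1 with array quality weights and 0 without the Gfap-rich cultures, and ranged from 2 to 3 when single cultures were left out. With array quality weights, 2 members were called in OGD-TIA against OGD-VEH, among 408 of all 16351 genes. In the interaction 2 were called with these weights, Relb and Vcam1, among 101 of all 16313 genes. In the other comparisons 0 members were called under every alternative run. Members with an adjusted p of at most 0.05 over both arms at any fold (12) numbered 3 to 13 under the other alternatives and 7 to 12 when single cultures were left out. The cause of these changes was not tested. All genes called ranged from 2 to 1929 in OGD-VEH against CONTROL-VEH and from 376 to 844 over both arms, single cultures aside. Of 803 recomputed fold changes of single members, none changed sign. They covered only Icam1 and the members already past the adjusted threshold over both arms, so a stable sign was likely by selection. For OGD-TIA against OGD-VEH and the interaction, only members at an unadjusted p under 0.05 (limma) were included. Over all 20 members tested in OGD-TIA against CONTROL-TIA, 17 were above 0, and 15 without the Gfap-rich cultures. Rela and Birc2 kept an adjusted p of at most 0.05 over both arms in all 25 alternatives run. Nfkbiz kept it in the 24 that tested it and was too low to be tested with a minimum of 2 FPKM. No paired analysis was possible because the cultures are numbered 1 to 16 and the groups share no number. Depth, known only as an estimate, limits the 4 member ligands, which stayed at or below the equivalent of 7.7 reads.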

Other observations

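Tnfaip3 had isoform means that lay in opposite order between CONTROL-VEH and OGD-VEH, with overlapping ranges. Its protein-coding isoform of 4422 bases averaged 0.835 FPKM in CONTROL-VEH, 0.684 in CONTROL-TIA, 0.483 in OGD-VEH and 0.467 in OGD-TIA, while the protein-coding isoform of 4334 bases averaged 0.285, 0.396, 0.594 and 0.297 FPKM in the same order. The ranges of the longer isoform were 0.555 to 0.986 FPKM in the CONTROL-VEH cultures and 0.374 to 0.606 FPKM in the OGD-VEH cultures, those of the shorter 0.083 to 0.749 and 0.318 to 0.817 FPKM, so both overlapped. These isoforms share most of their sequence, and the split between them is an estimate; the difference was not tested.

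In Vcam1, the protein-coding isoform of 3469 bases averaged 9.14 FPKM in the CONTROL-VEH cultures and 22.2 FPKM in the OGD-VEH cultures, and an isoform of 749 bases that is also annotated as protein-coding averaged 3.11 and 17.9 FPKM. In Relb, the rise was spread over the protein-coding isoforms of 2200, 2203 and 2209 bases, which averaged 0.367, 0.304 and 0.792 FPKM in the CONTROL-VEH cultures and 0.790, 0.812 and 1.44 FPKM in the OGD-VEH cultures. Both annotated Nfkb2 isoforms were higher in OGD-VEH than in CONTROL-VEH on average, with 1.64 against 0.637 FPKM and 1.86 against 0.370 FPKM.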
